A study of Homo sapiens with 9 samples.

Results

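The 10 genes described here are NFE2L2, which encodes the transcription factor NRF2, its inhibitor KEAP1, the NRF2 target genes HMOX1, NQO1, GCLC, GCLM, SLC7A11, TXNRD1 and SRXN1, and the lipid peroxidase gene GPX4. They were chosen by symbol for their known roles, and all 10 were found among the 22295 entries of the expression table and among the 15551 genes tested. The cells were U251, an established human glioblastoma line, infected with a lentivirus that carried a short hairpin RNA. In sh-Luci-3d (control) the hairpin was directed against luciferase, and the cells were taken at 3 dpi (days post infection). In the early group sh-Ptbp1-3d and the late group sh-Ptbp1-7d it was directed against PTBP1, an RNA-binding repressor of neuronal splicing, and the cells were taken at 3 dpi and 7 dpi. Each group had 3 RNA-seq libraries, and the groups are called here the control, the early knockdown and the late knockdown.

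All groups shared the cell line, the lentiviral vector and a neuronal induction medium that was given from 2 dpi and contained forskolin and dorsomorphin, so cells of 3 dpi had spent less time in it than cells of 7 dpi. A single PTBP1 hairpin was used, chosen by the study from 3. The libraries included no luciferase control of 7 dpi. In both comparisons with the late knockdown, the knockdown, the additional days and the time in the medium therefore cannot be told apart. The labels do not say whether the libraries of a group came from separate cultures, and the p-values measure only the spread between these libraries.

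Under basal conditions KEAP1 presents NRF2 to a CUL3 ubiquitin ligase, and NRF2 is degraded. Electrophiles and oxidants modify cysteines of KEAP1, NRF2 then accumulates, pairs with a small MAF protein and binds antioxidant response elements near its target genes, so that its activity is set largely at the level of the protein. The targets supply cystine (SLC7A11), join cysteine to glutamate as the first step of glutathione synthesis (GCLC and GCLM), keep thioredoxin reduced (TXNRD1), repair oxidised peroxiredoxins (SRXN1), reduce quinones (NQO1) and break down heme (HMOX1), while GPX4 uses glutathione to detoxify lipid hydroperoxides and protects cells from ferroptosis. Glioma cells are known for importing cystine through SLC7A11 in exchange for glutamate.

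The antioxidant response element is the sequence through which NRF2 acts, and its core letters TGACNNNGC were searched on both strands of the RefSeq promoters of these genes (GRCh38.p14, 300 bases, of which 250 lie before the start site and 50 after it). These letters can also overlap the AP-1 motif. They occurred in 13.3% of 35116 promoters in the genome, and in 4 of the 13 promoters of the 8 members with an entry, those of KEAP1 (the second of its 2 starts), GCLM and TXNRD1 (both of its starts). HMOX1 and SLC7A11 had no entry. A second motif, TGATGNAA, the letters of an amino acid response element bound by ATF4, occurred in 3.62% of all promoters and in 0 of these 13. NQO1 and GPX4, which fell at 7 dpi like GCLM and TXNRD1, had promoter entries without a match, as did NFE2L2, GCLC and SRXN1. Sequence outside these 300 bases was not searched, so a missing match does not mean that a gene lacks the element. The matches are shown because they hold the core letters of the element that NRF2 binds, and each is written 5′ to 3′ on the strand of its gene, with the motif, or its reverse complement, in capitals:
KEAP1, second start, chr19:10502807-10502835, minus strand: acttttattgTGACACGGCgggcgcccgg
KEAP1, second start, chr19:10502784-10502812, minus strand, motif on the opposite strand: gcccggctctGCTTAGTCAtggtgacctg
GCLM, chr1:93909446-93909474, minus strand, motif on the opposite strand: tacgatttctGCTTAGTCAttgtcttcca
TXNRD1, chr12:104215670-104215698, plus strand: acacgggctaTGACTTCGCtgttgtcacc
TXNRD1, chr12:104215761-104215789, plus strand, motif on the opposite strand: gcgtccttcgGCTCCGTCAgttcccacag
TXNRD1, second start, chr12:104286920-104286948, plus strand, motif on the opposite strand: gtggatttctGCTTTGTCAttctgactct

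Both KEAP1 stretches and that of the second TXNRD1 start lay within GENCODE v29 exons of their genes over all 29 bases. Of the GCLM stretch and of the second TXNRD1 stretch 11 bases lay in the first exon, and the TXNRD1 match that began 99 bases before the start lay upstream of the gene. The GCLM match and the second KEAP1 match have the same 9 letters in capitals. A match in these windows is a description of the letters and not a measurement of binding.

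Levels are given in FPKM, fragments per kilobase of transcript and scaled to the mapped fragments of each library, so that genes of different length can be set side by side. The values carry no steps of whole reads and the depth behind them is unknown. Tests were made with limma on log2(FPKM + 0.1), with Benjamini-Hochberg adjustment over all genes tested, and a gene is said to have risen or fallen where its adjusted p was below 0.05 at 3 dpi or below 0.01 in the comparisons with the late knockdown. A fold change above 2 was counted separately. With 3 libraries in each group, the smallest two-sided p of an exact permutation test is 0.1, and none is given.

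The FPKM totals of the 9 libraries lay between 367412 and 404922. The targeted gene PTBP1 was at 115.7 ± 7.58, 63.9 ± 2.67 and 50.5 ± 0.645 FPKM (SD, n = 3 each) in the control, the early knockdown and the late knockdown, and fell by 0.85 on the log2 scale at 3 dpi (SE 0.073, limma adjusted p = 0.00314), with an adjusted p of 0.0821 when these 2 groups were fitted alone. The summed level of 5 glioma and astroglial markers, most of it VIM, was 4323 to 4441 FPKM in the control, 4407 to 4710 in the early knockdown and 1203 to 1339 in the late knockdown. Against the early knockdown VIM and CD44 fell, while S100B rose from 0.115 to 0.797 FPKM (log2 fold change 2.08, limma adjusted p = 0.00202). NES was at 45.9 and 36.4 FPKM with overlapping groups and GFAP was at or below 1.15 FPKM in every library, and neither passed the test. Of 8 neuronal markers the sum was 488 to 525, 560 to 573.2 and 256 to 264 FPKM in the same order of groups, and its members moved both ways. Against the early knockdown TUBB3 fell from 317 to 118 FPKM and NEFL from 216 to 92.7 FPKM, whereas MAP2 rose from 20.3 to 38.9 FPKM (limma adjusted p = 0.00058) and SNAP25 was at 2.68 and 4.32 FPKM (limma adjusted p = 0.0177). Early knockdown replicate 3 alone held STMN2 at 11.5 FPKM and DCX at 2.14 FPKM. The sum of 8 blood and immune markers stayed between 0.0197 and 0.148 FPKM. The part of these shifts in the values below was not tested. Replicate 3 of the control stood apart from its group, with a median absolute log2 difference of 0.282 from the other two libraries, against 0.113 to 0.177 for the remaining libraries.

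At 3 dpi, knockdown of PTBP1 was not accompanied by a change in any of the 10 genes that passed the test. Of the 10, 0 passed an adjusted p of 0.05 in limma and 0 had an unadjusted p under 0.05, beside 0.0322% and 7.24% of all genes tested. Their log2 fold changes, the early knockdown against the control, ran from -0.10 (NQO1) to 0.17 (KEAP1), with a median of 0.0065 against 0.010 over all genes, and the lowest limma adjusted p was 0.792. Only for NQO1 did the groups not overlap, with the control at 371, 375 and 374 FPKM and the early knockdown at 357, 357 and 329.8 FPKM. Over all genes tested, the groups did not overlap for 10.8%, and for 4.93% the early knockdown libraries were the lower ones. The errors leave room for small changes, since the standard errors of the 10 log2 fold changes ran from 0.0735 for NQO1 to 0.159 for SLC7A11. At a fold change above 2 and an adjusted p below 0.05 this fit called 2 of all genes. The study reported many more genes at these thresholds, and the reason for the difference was not tested.

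**Figure D1:**
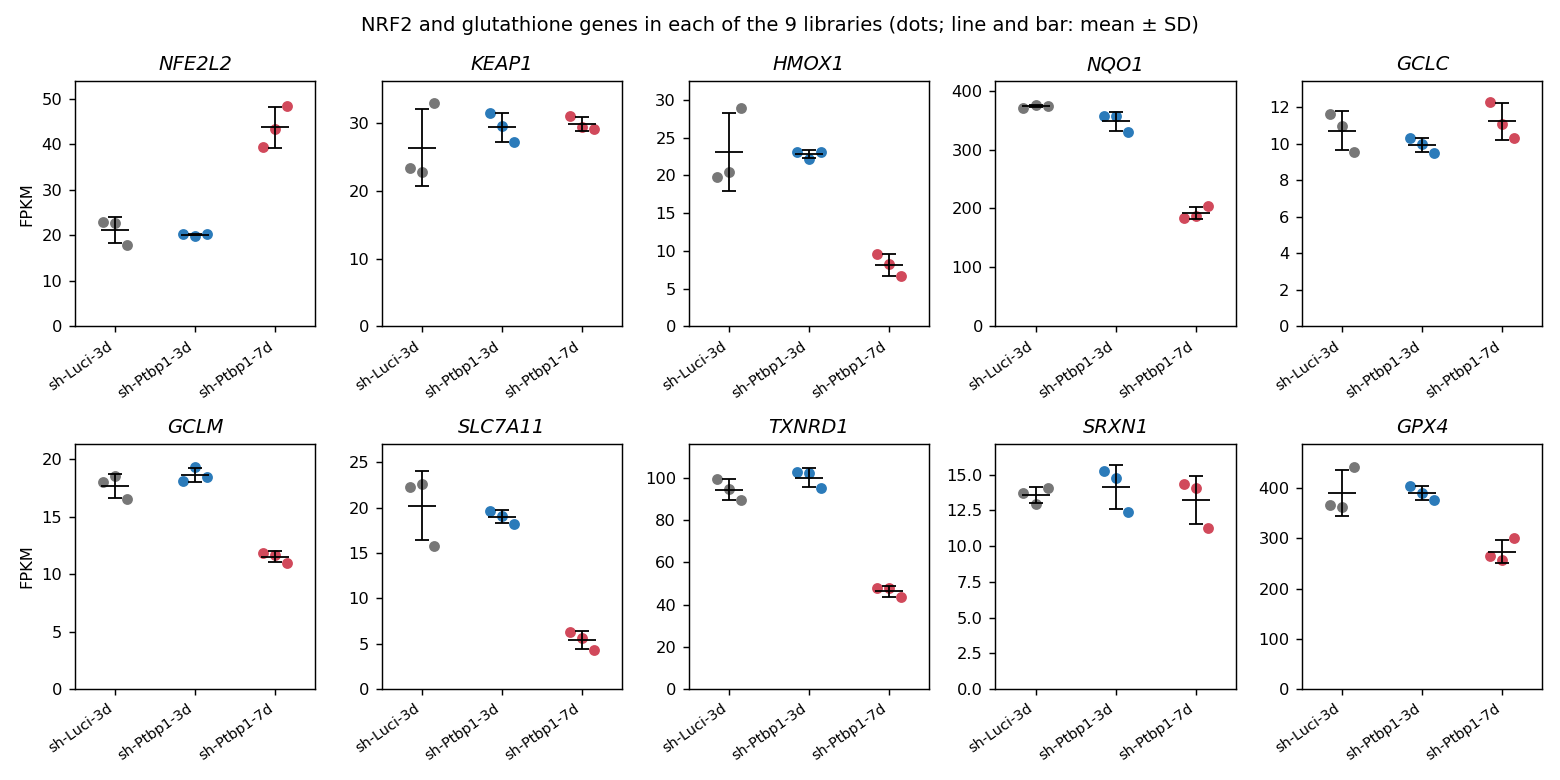
FPKM of the 10 genes in the 9 libraries, with a panel per gene, an axis that starts at 0, a dot per library, and a line with a bar for the mean ± SD of the 3 libraries of a group. NFE2L2 is higher in all 3 sh-Ptbp1-7d libraries than in the 6 libraries of 3 dpi, HMOX1, NQO1, GCLM, SLC7A11, TXNRD1 and GPX4 are lower, and KEAP1, GCLC and SRXN1 overlap.

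By 7 dpi the transcript of NRF2 was higher and most of the other transcripts were lower. Against the early knockdown, 1 of the 10 genes rose (NFE2L2) and 6 fell (SLC7A11, HMOX1, TXNRD1, NQO1, GCLM and GPX4), while KEAP1, GCLC and SRXN1 did not pass the test. Over all genes tested, 35.8% passed the same adjusted p, 20.3% higher and 15.5% lower. With the fold change above 2 the counts were 1 higher and 3 lower (SLC7A11, HMOX1 and TXNRD1), where 14.2% of all genes were called, 8.31% higher and 5.9% lower. The median log2 fold change of the 10 was -0.60, and that of all genes was 0.092. The groups did not overlap for the 7 genes that passed, 1 higher and 6 lower, nor for 62.3% of all genes, 35.3% higher and 27% lower. As these are bulk samples, fewer cells of a type and less RNA per cell cannot be told apart.

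Against the control the counts for the late knockdown were again 1 higher and 6 lower in limma, beside 35.6% of all genes (20.6% higher and 15% lower), and 1 higher and 3 lower with the fold change, beside 14.6% of all genes (8.93% higher and 5.68% lower). The same 7 genes had groups without overlap, as did 55.9% of all genes, 32.8% higher and 23.1% lower. With quantile normalization in place of the deposited scale the split of all genes called in this comparison was 1081 of 2196 higher, against 1388 of 2271. The median log2 fold change of the 10 was -0.56 and that of all genes was 0.099. The comparisons share the late knockdown libraries, so their likeness is no separate evidence, and both values are given side by side for each gene.

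NFE2L2 (chr2:177227595-177392697) was at 22.9, 22.6 and 17.8 FPKM in the control, 20.2, 19.9 and 20.3 FPKM in the early knockdown, and 39.4, 43.2 and 48.3 FPKM in the late knockdown. Every 7 dpi library was above every 3 dpi library. The log2 fold change was 1.11 against the early knockdown (SE 0.110, limma adjusted p = 1.42e-05) and 1.05 against the control (adjusted p = 2.05e-05). Its mean lay above those of 78.7% of all genes tested in the early knockdown and above those of 90.5% in the late knockdown. With TPM in place of FPKM, with each other scaling and without each library in turn, it remained past the adjusted p. Its fold change against the control was not above 2 with median-ratio scaling, without control replicate 3 (log2 value 0.93) or without late knockdown replicate 3.

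KEAP1 (chr19:10486120-10503741) encodes the adaptor that captures NRF2. It was at 23.5, 22.8 and 33.0 FPKM in the control, 31.5, 29.6 and 27.2 FPKM in the early knockdown, and 31.1, 29.5 and 29.2 FPKM in the late knockdown, and the groups overlapped. Its log2 fold change was 0.026 at 7 dpi against the early knockdown (SE 0.129, limma adjusted p = 0.881) and 0.20 against the control (adjusted p = 0.222). Whether KEAP1 passed against the control depended on replicate 3 of that group. Without that library KEAP1 was higher by 0.34 in the early knockdown (limma adjusted p = 0.0283) and by 0.37 in the late knockdown (limma adjusted p = 0.00201). The ratio of NFE2L2 to KEAP1 in FPKM was 0.836 ± 0.256 in the control, 0.687 ± 0.0525 in the early knockdown and 1.46 ± 0.192 in the late knockdown (SD, n = 3 each).

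The transcript of the cystine transporter showed the largest fall of the 10. SLC7A11 (chr4:138164097-138242349) encodes the transporter subunit xCT and was at 22.2, 22.7 and 15.8 FPKM in the control, 19.6, 19.1 and 18.2 FPKM in the early knockdown, and 6.27, 5.58 and 4.31 FPKM in the late knockdown. No 7 dpi library reached a level of 3 dpi, and the 7 dpi mean was 28.4% of the early knockdown mean. The log2 fold change was -1.82 against the early knockdown (SE 0.159, limma adjusted p = 5.63e-06) and -1.89 against the control (adjusted p = 4.14e-06). SLC3A2, which encodes the heavy chain that carries xCT to the membrane and also serves other amino acid transporters, was at 177.9 ± 5.09 FPKM in the early knockdown and 116.1 ± 7.42 FPKM in the late knockdown, and fell by 0.62 on the log2 scale (SE 0.133, limma adjusted p = 0.00299). Without early knockdown replicate 1, 2 or 3, or late knockdown replicate 2, its adjusted p lay between 0.0114 and 0.0161 and the call was lost. The SLC3A2 call was also lost with no filter on low values and with no trend (limma adjusted p = 0.0198 and 0.0106). Against the control SLC3A2 had a log2 value of -0.48 and did not pass (limma adjusted p = 0.0124). In that comparison it passed with median-ratio scaling, with quantile normalization, and without control replicate 1 or 3. The ratio of SLC7A11 to SLC3A2 was 0.131 ± 0.0472 in the control, 0.107 ± 0.00103 in the early knockdown and 0.0465 ± 0.00886 in the late knockdown (SD, n = 3 each).

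Of the subunits of glutamate-cysteine ligase, the modifier fell and the catalytic subunit did not pass the test. GCLM (chr1:93885205-93909456) was at 18.0, 18.5 and 16.5 FPKM in the control, 18.1, 19.4 and 18.5 FPKM in the early knockdown, and 11.9, 11.7 and 11.0 FPKM in the late knockdown. Its 7 dpi libraries lay below all 6 of 3 dpi, with a log2 fold change of -0.69 against the early knockdown (SE 0.0801, limma adjusted p = 4.40e-05) and -0.61 against the control (adjusted p = 0.000101).

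GCLC (chr6:53497341-53616970) was at 11.6, 11.0 and 9.52 FPKM in the control, 10.3, 9.96 and 9.51 FPKM in the early knockdown, and 12.3, 11.1 and 10.3 FPKM in the late knockdown. These ranges overlapped, with a log2 fold change of 0.17 against the early knockdown (SE 0.103, limma adjusted p = 0.185) and 0.071 against the control (adjusted p = 0.597). The ratio of GCLM to GCLC in FPKM was 1.66 ± 0.0965 in the control, 1.88 ± 0.107 in the early knockdown and 1.03 ± 0.0541 in the late knockdown (SD, n = 3 each), and its 7 dpi values, 0.967 to 1.07, lay below all those of 3 dpi.

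Of the enzymes that act on quinones and heme, both fell. NQO1 (chr16:69706996-69726951) had 184, 188 and 204 FPKM in the 3 late knockdown libraries, against 329.8 to 375 FPKM in the 6 libraries of 3 dpi. That is a log2 fold change of -0.86 against the early knockdown (SE 0.0735, limma adjusted p = 4.80e-06) and -0.96 against the control (adjusted p = 2.04e-06). Even so it remained among the most abundant transcripts, above 98.5% of all genes tested at 7 dpi.

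HMOX1 (chr22:35380361-35394214) is the inducible heme oxygenase. It was at 19.7, 20.5 and 29.0 FPKM in the control, 23.1, 22.2 and 23.2 FPKM in the early knockdown, and 9.54, 8.24 and 6.68 FPKM in the late knockdown, which was 35.7% of the early knockdown mean. The 7 dpi libraries were all below those of 3 dpi. The log2 fold change was -1.49 against the early knockdown (SE 0.157, limma adjusted p = 2.21e-05) and -1.48 against the control (adjusted p = 2.25e-05).

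Of the genes that serve thioredoxin and peroxiredoxins, TXNRD1 fell and SRXN1 did not pass the test. TXNRD1, the cytosolic thioredoxin reductase (chr12:104215779-104350305), was at 99.3, 94.6 and 89.4 FPKM in the control, 102.8, 102.6 and 95.1 FPKM in the early knockdown, and 48.0, 47.8 and 43.4 FPKM in the late knockdown. Its log2 fold change was -1.11 against the early knockdown (SE 0.0759, limma adjusted p = 9.39e-07) and -1.02 against the control (adjusted p = 1.63e-06), and no 7 dpi library overlapped those of 3 dpi. Against the control its fold change was above 2 on the deposited scale but not with TPM (log2 value -0.94), without control replicate 1 or without late knockdown replicate 3.

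SRXN1 (chr20:646615-653370) was at 13.7, 12.9 and 14.1 FPKM in the control, 15.3, 14.7 and 12.4 FPKM in the early knockdown, and 14.3, 14.1 and 11.3 FPKM in the late knockdown. The 3 groups overlapped, and the log2 fold change was -0.098 against the early knockdown (SE 0.115, limma adjusted p = 0.505) and -0.044 against the control (adjusted p = 0.778).

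GPX4 (chr19:1103926-1106791) had the highest mean of the 10 in every group. It was at 366, 362 and 443 FPKM in the control, 405, 391 and 376 FPKM in the early knockdown, and 264, 257 and 299.9 FPKM in the late knockdown. The 7 dpi libraries were the lower ones without overlap, with a log2 fold change of -0.52 against the early knockdown (SE 0.0987, limma adjusted p = 0.00138) and -0.51 against the control (adjusted p = 0.00149). With quantile normalization these values were -0.09 (limma adjusted p = 0.388) and -0.10 (limma adjusted p = 0.334), so whether it passed depended on the scale. The remaining 6 genes that passed kept their calls under quantile normalization.

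**Figure D2:**
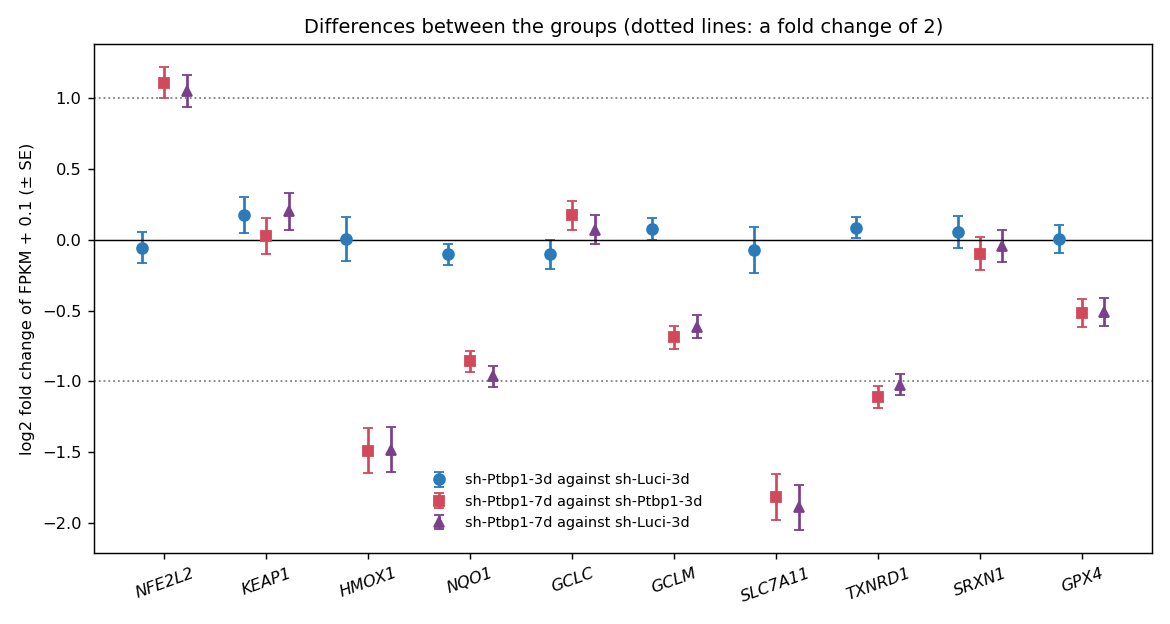
Log2 fold change of FPKM + 0.1 for the 10 genes in the 3 comparisons, as points with bars of 1 SE from limma, with dotted lines at a fold change of 2. The points of the 3 dpi comparison lie between -0.10 and 0.17, and those for sh-Ptbp1-7d run from 1.11 for NFE2L2 down to -1.89 for SLC7A11.

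The order of the levels also changed. In both groups of 3 dpi the means ran from GPX4 through NQO1, TXNRD1, KEAP1, HMOX1, NFE2L2, SLC7A11, GCLM and SRXN1 to GCLC. In the control the ranges of neighbours from KEAP1 to GCLM overlapped in turn, as did those of GPX4 and NQO1. At 7 dpi NFE2L2 stood next to TXNRD1, whose range it overlapped, while HMOX1 and SLC7A11 had become the lowest of the 10 and did not overlap each other. The ranges of SRXN1, GCLM and GCLC overlapped at 7 dpi. Set against the transcript of their regulator, NQO1 was 17.3 ± 0.889 times as high as NFE2L2 in the early knockdown and 4.41 ± 0.237 times in the late knockdown (SD, n = 3 each). TXNRD1 was 4.97 ± 0.249 and 1.07 ± 0.162 times as high, and SLC7A11 0.943 ± 0.0385 and 0.126 ± 0.0351 times.

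Replicate 3 of the control held the lowest value of its group for NFE2L2, GCLC, GCLM, SLC7A11 and TXNRD1 and the highest for KEAP1, HMOX1, SRXN1 and GPX4. In the comparisons with the late knockdown, the 7 genes that passed did so without each library in turn, replicate 3 of the control and replicate 3 of the early knockdown included.

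Some of the genes overlap other annotated genes, and whether the counting used strand is not given in the sources used here. The span of NFE2L2 meets that of AGPS on the opposite strand at its 5′ end, and AGPS reached 22.8 FPKM. NQO1 meets an assembled locus on the opposite strand of at most 1.13 FPKM, TXNRD1 contains EID3 of at most 2.65 FPKM, and SRXN1 shares its span with AL121758.1 of at most 0.0248 FPKM. SLC7A11 overlaps the antisense gene SLC7A11-AS1, which was not analysed here. Reads shared by pairs on opposite strands cannot be told apart where strand was not used. EID3 and AL121758.1 lie on the same strand as TXNRD1 and SRXN1, so strand would not separate the reads of these pairs.

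The genes most like the 4 members past both thresholds were found by the root mean square difference of centred log2 profiles over the 9 libraries, among 11339 genes. The nearest to NFE2L2 were RNF138 (0.0638), KDELR2 (0.0645) and ZNF614 (0.0726), and the nearest to SLC7A11 were SORL1 (0.0910), ETS1 (0.0948) and ADAM12 (0.0966). For HMOX1 they were ATPSCKMT (0.0959), CHD3 (0.119) and ADAMTS15 (0.123). For TXNRD1 they were ATL3 (0.0367), GSR (0.0432) and H2AZ2 (0.0464), of which GSR encodes glutathione reductase. The libraries share their groups, and the values describe likeness of profile only.

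A wider set of 125 genes of the same pathways, none of them among the 10, was divided into 10 lists by role, and 118 of them were tested. In the late knockdown against the early knockdown, 20 rose, 48 fell and 50 did not pass, beside 20.3% higher and 15.5% lower over all genes, with a median log2 fold change of -0.24 beside 0.092 for all genes. With the fold change above 2 they were 5 higher and 18 lower, where 8.31% and 5.9% of all genes were. Against the control, 20 rose, 43 fell and 55 did not pass, beside 20.6% higher and 15% lower over all genes, and with the fold change 4 were higher and 15 lower, beside 8.93% and 5.68%. At 3 dpi none passed in limma, where 8 of the 118 had an unadjusted p under 0.05, beside 7.24% of all genes. Without control replicate 3, GPX1 was higher at 3 dpi by 0.52 (limma adjusted p = 0.0095) and SLC3A2 by 0.32 (limma adjusted p = 0.0258), and GGT1 was lower. The counts of each list given next are for the late knockdown against the early knockdown, where the same 20.3% and 15.5% of all genes rose and fell.

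**Figure D3:**
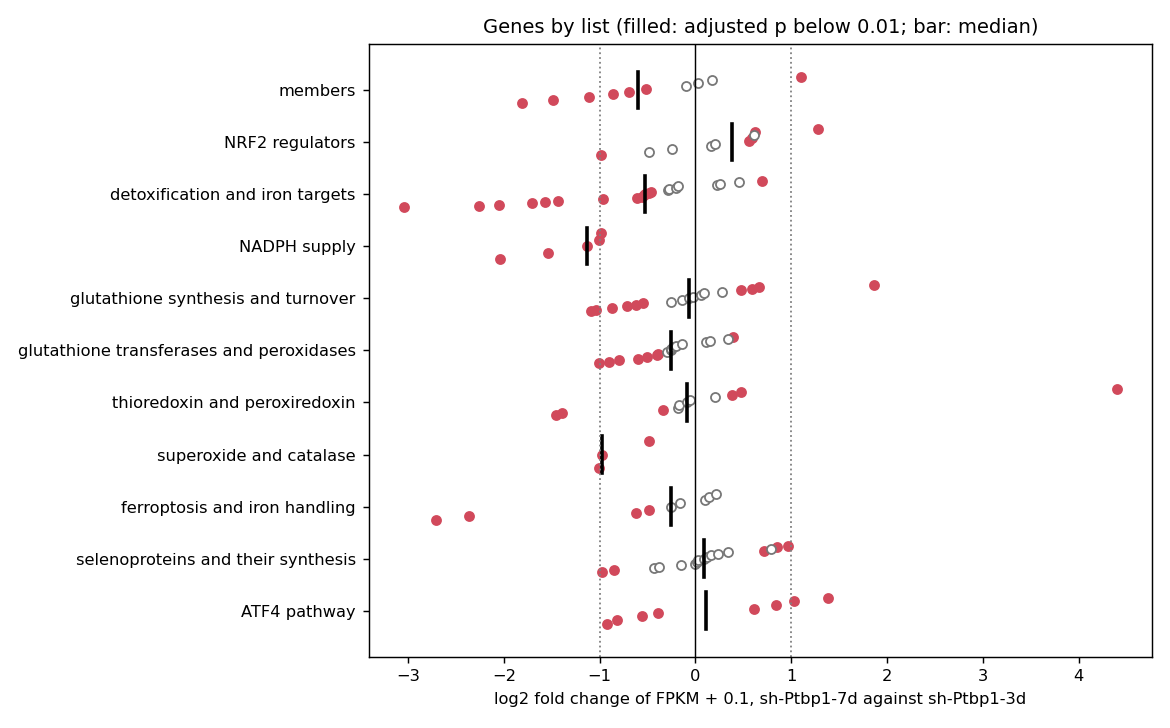
Log2 fold change of FPKM + 0.1, sh-Ptbp1-7d against sh-Ptbp1-3d, for the 10 genes (members) and for the pathway lists, with a dot per gene, filled where the limma adjusted p was below 0.01, and a black bar for the median of the list. NADPH supply has the lowest median, -1.13, and all of its 5 tested genes are filled and lie below 0.

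Among 10 other regulators of NRF2, 4 rose and 1 fell, with a median log2 fold change of 0.38. SYVN1, which encodes the HRD1 ubiquitin ligase of the endoplasmic reticulum, rose from 11.8 ± 0.373 to 29.0 ± 2.55 FPKM between the early knockdown and the late knockdown (log2 fold change 1.28, SE 0.088, limma adjusted p = 9.51e-07). SQSTM1, the autophagy receptor p62 that sequesters KEAP1, fell from 557 ± 28.2 to 282 ± 13.8 FPKM (log2 fold change -0.98, limma adjusted p = 3.79e-05). The small MAF partners MAFF and MAFG rose by 0.62 and 0.60 on the log2 scale (limma adjusted p = 0.00176 and 0.00228), and MAFK had a value of -0.49 (adjusted p = 0.0328). MAFF did not pass with quantile normalization (limma adjusted p = 0.0125). MAFG did not pass without early knockdown replicate 3 or late knockdown replicate 1 or 2 (adjusted p of 0.0110 to 0.0140), nor with no filter on low values (adjusted p = 0.0120). BACH1, a repressor that competes for the same elements, was at 2.23 ± 0.235 and 3.47 ± 0.381 FPKM (log2 fold change 0.61, limma adjusted p = 0.0186), and CUL3 had a value of 0.16 (adjusted p = 0.199). With the 2 groups fitted alone, BACH1 and MAFK passed (limma adjusted p = 0.00508 and 0.00775). BACH1 also passed with a replicate block (limma adjusted p = 0.00595).

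The detoxification and iron targets moved mostly downward, with 1 of 21 higher, 13 lower and a median of -0.52. ABCC2, an exporter of glutathione conjugates, fell from 5.01 ± 0.471 to 0.522 ± 0.0745 FPKM (log2 fold change -3.04, SE 0.166, limma adjusted p = 1.93e-07). AKR1C1, an aldo-keto reductase, fell from 1.65 ± 0.205 to 0.326 ± 0.0784 FPKM (log2 fold change -2.05, limma adjusted p = 8.68e-06), a value that is uncertain because near-identical family members can share its reads. The ferritin heavy chain FTH1 fell from 2567 ± 121 to 863 ± 70.0 FPKM (log2 fold change -1.57, limma adjusted p = 3.87e-07) and the light chain FTL from 4535 ± 177 to 1682 ± 155 FPKM (log2 fold change -1.43, limma adjusted p = 1.39e-06), and both have many processed pseudogenes.

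All 5 tested genes of NADPH supply, which feeds both glutathione reductase and thioredoxin reductase, fell. TKT, a transketolase, fell from 597 ± 22.1 FPKM in the early knockdown to 205 ± 0.988 FPKM in the late knockdown, and PGD, a dehydrogenase of the pentose phosphate pathway, from 157 ± 3.39 to 71.9 ± 4.71 FPKM. Their log2 fold changes were -1.54 and -1.13 (limma adjusted p = 3.44e-07 and 5.22e-07), and TALDO1 and IDH1 fell by 0.99 and 1.01.

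Glutathione synthesis and turnover was mixed, with 4 of 17 tested genes higher and 6 lower and a median of -0.064. GSR, glutathione reductase, fell from 48.9 ± 0.36 to 23.0 ± 1.11 FPKM (log2 fold change -1.09, SE 0.0788, limma adjusted p = 1.46e-06), and GSS, glutathione synthetase, from 51.7 ± 1.01 to 35.4 ± 1.71 FPKM (log2 fold change -0.55, limma adjusted p = 6.59e-05). The glutathione-degrading enzymes CHAC1 and CHAC2 went opposite ways, with log2 fold changes of 0.59 and -1.04 (limma adjusted p = 0.00067 and 0.000354). GGT1, which cleaves glutathione outside the cell, was at 2.81, 2.62 and 2.92 FPKM in the control, 1.11, 1.03 and 1.53 FPKM in the early knockdown, and 5.50, 4.55 and 4.03 FPKM in the late knockdown. It rose by 1.86 on the log2 scale between 3 and 7 dpi (SE 0.168, limma adjusted p = 7.11e-06), and its value at 3 dpi was -1.14 (limma adjusted p = 0.0831, or 0.0138 without control replicate 3). GGT1 has close paralogs and pseudogenes, and its level is uncertain for that reason.

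Of 17 tested glutathione transferases and peroxidases 1 rose and 7 fell, with a median of -0.25. GPX1, the cytosolic peroxidase, fell from 284 ± 21.6 to 141 ± 7.32 FPKM (log2 fold change -1.01, limma adjusted p = 0.000866, or 0.0113 with no filter on low values), and in the control it was at 200.1, 196 and 342 FPKM, with replicate 3 again apart. In the thioredoxin and peroxiredoxin list 3 of 11 rose and 3 fell. TXN, thioredoxin, fell from 302 ± 11.6 to 115 ± 7.68 FPKM (log2 fold change -1.39, SE 0.074, limma adjusted p = 1.55e-07) and PRDX1, its peroxidase partner, from 1125 ± 45.6 to 411 ± 26.1 FPKM (log2 fold change -1.45, limma adjusted p = 4.08e-07). TXNIP, which binds and inhibits thioredoxin, rose from 10.9 ± 2.14 to 229.7 ± 14.3 FPKM (log2 fold change 4.40, SE 0.150, limma adjusted p = 8.68e-09). Among other peroxidases of these lists, PRDX2, PRDX4 and GPX8 rose by 0.38, 0.48 and 0.39 on the log2 scale, and PRDX3 fell by 0.34. All 3 tested genes of the superoxide and catalase list fell, SOD2 among them from 12.9 ± 3.60 to 6.50 ± 2.12 FPKM (limma adjusted p = 0.00669). The SOD2 call was lost without early knockdown replicate 1, 2 or 3 or late knockdown replicate 1 or 2 (adjusted p of 0.0103 to 0.0399). It was also lost with TPM, with no filter on low values, with no trend and with the 2 groups fitted alone (limma adjusted p of 0.0110 to 0.0439).

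**Figure D4:**
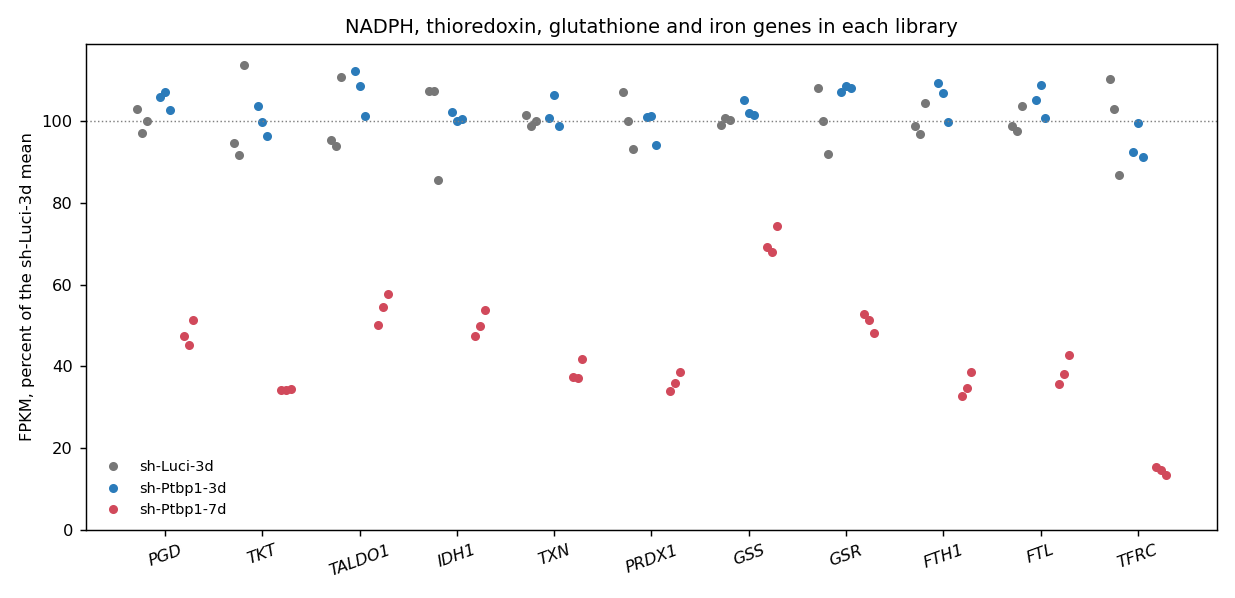
FPKM of 11 NADPH, thioredoxin, glutathione and iron genes in each library, as a percentage of the sh-Luci-3d mean of the gene, with a dot per library. The 11 were chosen after their values were seen, from genes that fell, and in each the 3 sh-Ptbp1-7d libraries lie below the 6 libraries of 3 dpi. Of the same lists TXNIP, PRDX2, PRDX4, GGT1, GGT7, CHAC1, GLRX and ABCC3 rose against sh-Ptbp1-3d and are not plotted.

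Of 9 tested genes of ferroptosis and iron handling 0 rose and 4 fell. The transferrin receptor TFRC, through which iron enters the cell, was at 142, 132 and 112 FPKM in the control, 119, 128 and 117 FPKM in the early knockdown, and 19.7, 18.7 and 17.1 FPKM in the late knockdown (log2 fold change -2.71 against the early knockdown, SE 0.0975, limma adjusted p = 1.32e-08). STEAP3, the ferrireductase of the same endosomes, fell from 9.81 ± 0.596 to 1.87 ± 0.554 FPKM (log2 fold change -2.36, limma adjusted p = 2.11e-06). The iron importer SLC39A14, at 21.9 and 19.7 FPKM, did not pass (log2 value -0.16, limma adjusted p = 0.118). ACSL4, which loads membranes with polyunsaturated fatty acids, fell by 0.49 (limma adjusted p = 0.00623), but the call was lost with TPM and with quantile normalization. It was also lost with no filter on low values and with no trend (limma adjusted p = 0.0289 and 0.0186). Without each library of these 2 groups in turn its adjusted p was 0.0118 to 0.0268. AIFM2, a suppressor of ferroptosis that works apart from GPX4, had a log2 value of -0.25 (limma adjusted p = 0.138).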

How the data were processed

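RNA-seq was made from total RNA of U251 cells, 3 libraries per group, grouped by the labels. Expression was deposited as FPKM, which the authors had computed for each gene in each library. The submitters' processing notes name HISAT2 and GRCh38, 2363 of the entries carry StringTie names, and the program that made the FPKM values is not given in the sources used here. The authors also deposited coordinates of the assembled loci, another kind of value, used here for the build and for overlaps. Of 43315 assembled exons 49.6% equal a GENCODE v29 exon at both ends, and 97.6% of the 19932 symbols are in GENCODE v29.

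From the deposited values, log2(FPKM + 0.1) was taken for 15551 genes whose mean reached 0.1 FPKM. A linear model with a term per group was fitted to the 9 libraries by limma 3.58.1 (R 4.3.3) with a trended prior variance, and p-values were adjusted by Benjamini-Hochberg. The pseudocount makes the fold changes of low genes too small. Thresholds were a fold change above 2 and an adjusted p below 0.05 at 3 dpi and below 0.01 otherwise. The fit was tested only on simulated data with independent noise for each gene and large planted changes. That simulation held no outlying library and no change as small as those of GPX4, GCLM and NQO1, so it does not bear on such calls. The members, lists and tests were chosen with earlier results of these data known. Named genes were the 10 members, PTBP1, up to 3 rises and 3 falls per pathway list past both thresholds and reaching a mean of 1 FPKM, and 16 genes by role. TALDO1, IDH1, FTL, SLC39A14, SESN2, PHGDH, DDIT4, ASNS, PSAT1, the marker genes named and the 11 genes plotted together were chosen after their values were seen. So were ABCC3, GGT7, GLRX, GPX2, GPX3, GPX8, PRDX2, PRDX3, PRDX4, TXNRD2 and TXNRD3. A gene that the naming rule selects is not reported here. Alternatives were pseudocounts, filters, TPM, other scalings, a fit of 2 groups alone, no trend, a replicate block, no fold threshold and leaving out each library. Python 3.11.15 with pandas 2.3.3 and matplotlib 3.10.9 made the tables and figures.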

Additional observations from a re-analysis of the deposited data

How the results depend on the processing

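The 10 genes kept their side of the threshold in 169 of 170 recomputed values for the early knockdown against the control, 169 of 170 for the late knockdown against the early knockdown and 168 of 170 for the late knockdown against the control. The exceptions were GPX4 with quantile normalization and KEAP1 without control replicate 3, given above, and no value that had passed changed direction. With no fold threshold 7 of the 10 were called in each comparison with the late knockdown, in place of 4, and 68 and 63 pathway genes in place of 23 and 19. Without each library in turn, the members called numbered 4 against the early knockdown and 3 or 4 against the control, where without late knockdown replicate 3 NFE2L2 and TXNRD1 lost the fold of 2 and NQO1 gained it (log2 value -1.01). Pathway genes called were then 21 to 24 and 18 to 22, and at 3 dpi 0 to 1, the 1 being GGT1 without control replicate 3, where GPX1 and SLC3A2 also passed the adjusted p but not the fold. PTBP1 at 3 dpi kept a log2 fold change of -0.85 with an adjusted p of 0.0821 when the 2 groups were fitted alone, and ranged from -0.88 to -0.80 without each library, with an adjusted p of 0.0579 without early knockdown replicate 3. The cause of these changes was not tested, beyond the fewer libraries in such fits.

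The replicate numbers did not pair the samples: deviations of same-numbered libraries correlated at -0.032 to 0.051, and the best partner had the same number in 6 of 18 cases. With the replicate block PTBP1 at 3 dpi was -0.85 with an adjusted p of 0.0583, and no call of the 10 genes changed.

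The median log2 fold change of all genes, 0.092 and 0.099 in the comparisons with the early knockdown and the control, was 0.20 and 0.18 with TPM and -0.0070 and -0.014 with quantile normalization. With a pseudocount of 1 the genes called fell from 2211 and 2271 to 1255 and 1269. The depth is unknown, so counting error could not be given an interval, and 3 libraries per group limit the precision.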

Other observations

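GPX4 and TXNRD1 are selenoproteins. Of 17 tested genes of selenoproteins and their synthesis 3 rose and 2 fell between the early knockdown and the late knockdown, with a median log2 fold change of 0.089. Over all genes tested, 20.3% rose and 15.5% fell in this comparison, with a median of 0.092, so this list as drawn stood near all genes. It leaves out the selenoproteins placed elsewhere here, of which GPX4, TXNRD1 and GPX1 fell. TXNRD2, TXNRD3, GPX2 and GPX3, also placed elsewhere, did not pass. SECISBP2, which encodes the protein that recognises the selenocysteine insertion element, rose from 6.13 ± 0.613 to 10.1 ± 0.721 FPKM (SD, n = 3 each, log2 fold change 0.71, SE 0.105, limma adjusted p = 0.000241). SEPHS2, which makes the selenium donor, was at 33.9 ± 0.807 and 34.5 ± 2.37 FPKM (limma adjusted p = 0.873).

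SLC7A11 and CHAC1 are also targets of ATF4, the transcription factor of the amino acid response. In the late knockdown against the early knockdown, all 8 genes of the ATF4 list passed the test, 4 higher and 4 lower. Over all genes tested, 20.3% rose and 15.5% fell in this comparison. ATF4 itself rose from 152 ± 9.15 to 231.5 ± 9.06 FPKM (log2 fold change 0.61, limma adjusted p = 0.000516). DDIT3 and TRIB3 rose by 1.38 and 1.03 on the log2 scale (limma adjusted p = 2.78e-06 and 8.45e-06), and SESN2 rose by 0.85. The 4 that fell were PHGDH, from 178 to 93.5 FPKM, DDIT4, from 122 to 69.5 FPKM, ASNS, from 37.4 to 25.3 FPKM, and PSAT1, from 47.0 to 35.9 FPKM.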
